A study of Mus musculus with 18 samples.

Results

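The genes described here encode 10 enzymes of glycolysis, namely Hk2, Pfkp, Aldoa, Tpi1, Gapdh, Pgk1, Pgam1, Eno1, Pkm and Ldha. They were chosen by symbol to cover most steps of the pathway, with earlier results of these data known. Their counts are therefore set beside the shares of all genes as description only. All 10 were found among the 35655 genes of the count table. The libraries came from carotid arteries of wild-type (WT) male mice of the strain C57/BL6, in which a wire was used to injure the left carotid at 11 weeks of age. Tissue sections holding the outer elastic lamina and the neointima, the cell layer that forms inside the vessel wall after injury, were cut out by laser, and up to 70 sections were combined for each RNA sample. The groups were day 0, labelled pre-injury (4 libraries), and injured vessels on day 7 (4), day 14 (3), day 21 (4) and day 28 (3). The neointima forms only after injury, and the study's methods do not say which layers were cut on day 0. The tissue compared with day 0 may therefore differ in its layers. Thrombosed vessels had been removed, and the labels name no transgene or drug. In the study's methods the uninjured right carotid was the control, but the labels do not say which vessel a day 0 sample came from. Nor do they say that the libraries of a day came from separate animals, so the p-values below measure the spread between these libraries.

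RNA was measured by massive analysis of cDNA ends (MACE), in which each transcript gives reads from its 3′ end only, so that a level does not grow with transcript length. Levels are given in CPM, the usual rate of a gene's counts within the total of its library, with the totals scaled by the trimmed mean of M-values (TMM). Libraries held 440675 to 878310 counts, with a median of 659166, and the 10 genes took 0.146% to 0.389% of them. After a filter on low counts, 10312 genes were tested, all 10 enzymes among them. Every fold change and adjusted p comes from edgeR's quasi-likelihood test with Benjamini-Hochberg adjustment over these 10312 genes, and a gene is said to rise or fall only where that adjusted p was under 0.05.

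Glycolysis splits glucose into pyruvate in the cytosol and yields ATP without oxygen. Hexokinase traps glucose in the cell, phosphofructokinase commits it to the pathway, a chain of enzymes from aldolase to enolase rearranges the sugar and regains ATP, pyruvate kinase makes pyruvate, and lactate dehydrogenase turns pyruvate into lactate. In the vessel wall contractile smooth muscle cells, dividing cells and activated macrophages all use the pathway, and the transcription factors HIF1A and MYC are known to act on many of its genes through promoter elements with the core ACGTG (or GCGTG) and CACGTG.

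The promoter sequences of Ldha and Pgk1, which rose after injury, and of Pfkp, which fell, are shown to make these elements visible. Each is the stretch upstream of the RefSeq start site, from the first of the RefSeq windows of 250 bases to the first base of an annotated exon (GENCODE vM39), read 5′ to 3′ on the gene's strand in GRCm39. The Ldha stretch lies inside the annotated gene, after its most upstream start. Capitals mark ACGTG read on either strand.
Ldha, chr7:46494978-46495131, plus strand: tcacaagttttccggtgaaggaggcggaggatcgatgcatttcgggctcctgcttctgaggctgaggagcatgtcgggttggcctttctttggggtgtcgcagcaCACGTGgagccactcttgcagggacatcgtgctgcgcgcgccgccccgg
Pgk1, chrX:105230456-105230705, plus strand: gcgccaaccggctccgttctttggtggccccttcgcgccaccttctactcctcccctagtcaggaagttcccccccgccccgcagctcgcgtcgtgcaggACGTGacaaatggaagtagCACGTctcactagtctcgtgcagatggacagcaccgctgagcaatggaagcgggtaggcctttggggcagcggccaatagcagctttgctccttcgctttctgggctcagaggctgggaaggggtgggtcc
Pfkp, chr13:6698971-6699057, minus strand: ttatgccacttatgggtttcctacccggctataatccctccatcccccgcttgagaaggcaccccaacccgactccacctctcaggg
In the Ldha stretch the palindrome CACGTG was read on both strands and so counts as 2 overlapping ACGTG matches. The Pgk1 stretch held 2 separate matches. The Pfkp stretch held 0, but it is only 87 bases long, since 163 bases of its window are exon, and the whole Pfkp window held 3 matches to GCGTG, also searched on both strands. The whole first Ldha window, of which 96 bases are exon, held 5 ACGTG matches. It held CACGTG at 2 places, and each of these again counts as 2 overlapping ACGTG matches. Of the 16 RefSeq windows of the 10 genes, 7 held ACGTG, against 16.57% of 32851 windows of the same length over all genes, and 7 held GCGTG, against 28.16%, while CACGTG was in 6.02% of all windows. ACGTG was also in windows of Hk2, Aldoa, Pgam1 and Pkm, none of which rose against day 0 on any day. These matches describe letters in the window and were not tested against the counts.

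Ldha and Pgk1 rose by day 7, Ldha was still higher on days 14 and 21, and Pfkp fell on days 7, 21 and 28. Pkm was lower than before injury on day 21. The other 6 genes did not pass the test against day 0 on any day. All comparisons with day 0 share the same day 0 libraries, so calls of a gene on several days are not independent. The plot of CPM by library shows all 10 genes together.

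**Figure D1:**
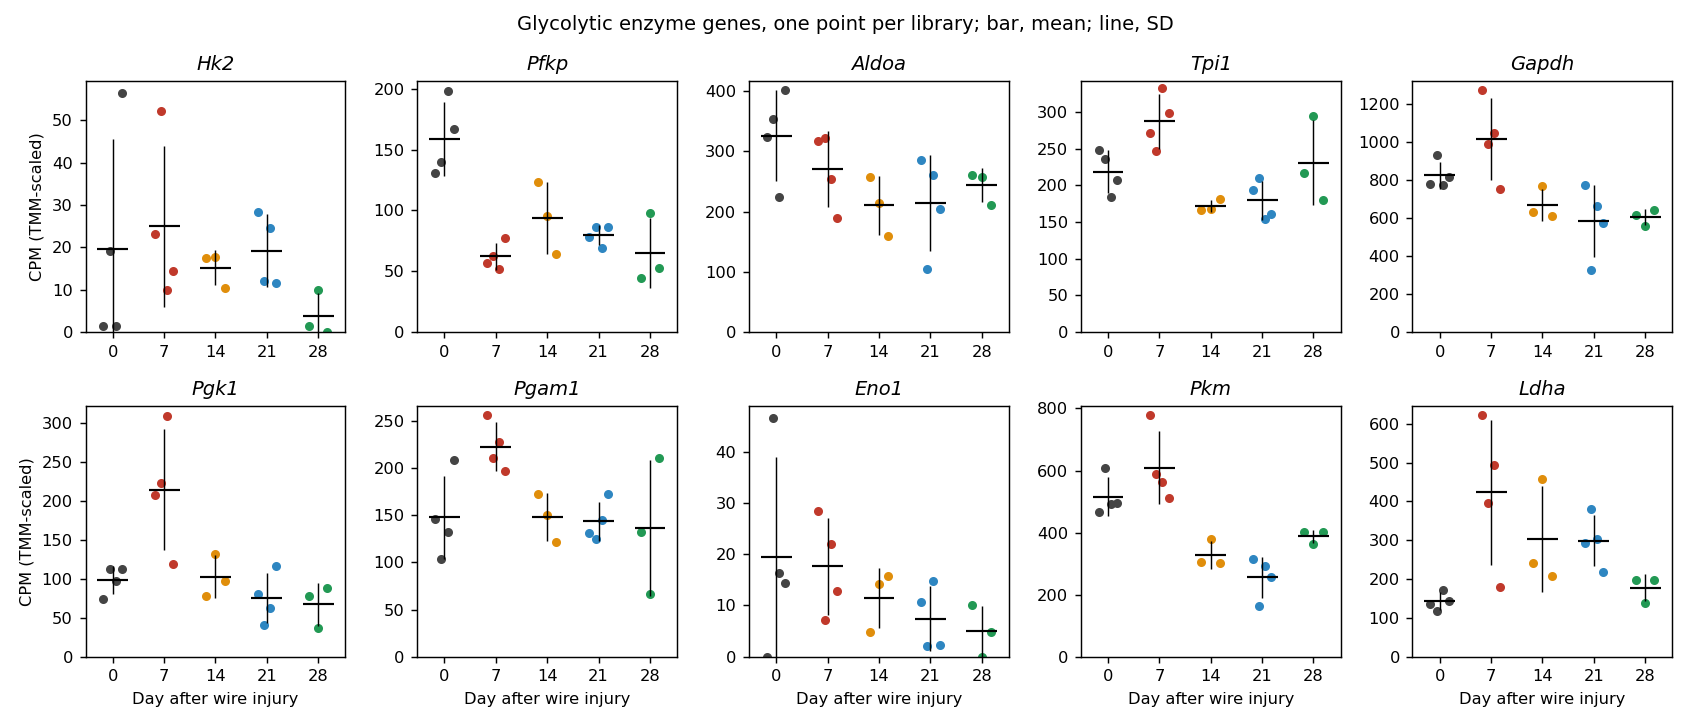
Level of each of the 10 genes in CPM (vertical axes, each from 0 and on its own scale) by day after wire injury (horizontal axes). Points are libraries, horizontal bars are means and vertical lines are SDs, cut at 0. Ldha and Pgk1 stand highest on day 7, Pfkp is below every day 0 library in all 14 injured libraries, and Hk2 and Eno1 stay under 60 CPM with wide spread.

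On day 7 against day 0, 3 of the 10 genes passed the test, where 19.8% of all genes tested did. The libraries of both days did not overlap for the same 3 genes, and for 23.3% of all genes. Of these, 2 rose (11.3% of all genes rose) and 1 fell (8.53% of all genes fell). The median log2 fold change was 0.32 over the 10 genes and 0.07 over all genes tested.

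Ldha encodes the muscle-type subunit of lactate dehydrogenase, which favours the making of lactate. The gene lies at chr7:46490899-46505061 (GRCm39). The day 0 libraries held 137, 117, 173 and 143 CPM, and the day 7 libraries 621, 397, 494 and 181 CPM. The groups did not overlap, although day 7 replicate 4 lay close to the highest day 0 library. The means were 143 ± 23.1 (SD, n = 4) and 423 ± 186 (SD, n = 4), a rise of 2.97-fold (log2 fold change 1.57 ± 0.31 SE, 95% interval 0.92 to 2.22, edgeR adjusted p = 7.04e-04). With 1 library left out the log2 fold change ranged from 1.26 (without day 7 replicate 1) to 1.77 (without day 7 replicate 4) and the call held, but it was lost with the number in the library descriptions as a block (log2 fold change 1.40, edgeR adjusted p = 0.0558).

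Pgk1 encodes phosphoglycerate kinase, the first enzyme of the pathway that regains ATP, and lies at chrX:105230706-105247305. Its day 0 levels were 74.4, 112, 96.9 and 113 CPM, and its day 7 levels were 208, 223, 309 and 119 CPM. Again replicate 4 was the lowest day 7 library, and the groups did not overlap. The rise was 2.16-fold (log2 fold change 1.11 ± 0.33 SE, edgeR adjusted p = 0.0176), but the call was lost without day 0 replicate 1 (adjusted p = 0.0552) or without day 7 replicate 3 (adjusted p = 0.0896).

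Pfkp, at chr13:6629798-6698970, encodes the platelet type of phosphofructokinase. It had 131, 140, 198 and 167 CPM on day 0 and 57.0, 62.9, 51.8 and 77.5 CPM on day 7. Every day 7 library was below every day 0 library. The day 7 mean was 0.394 of the day 0 mean (log2 fold change -1.34 ± 0.29 SE, edgeR adjusted p = 0.00151), and the call held under every alternative tried, with adjusted p from 0.000227 to 0.0447. Its exons share 1831 bases with those of Pitrm1 on the other strand, and the use of strand in the counting is not given in the sources used here. Pitrm1 had 340 counts over all libraries against 1097 for Pfkp, and its own log2 fold change on day 7 was 1.06 (edgeR adjusted p = 0.182).

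Among the other genes, Pgam1, which encodes phosphoglycerate mutase, had a mean of 148 ± 44.2 CPM on day 0 and 223 ± 25.7 on day 7, and its log2 fold change of 0.59 had a 95% interval of 0.00 to 1.18 (edgeR adjusted p = 0.166). Tpi1 (triosephosphate isomerase), Gapdh (glyceraldehyde-3-phosphate dehydrogenase) and Pkm (pyruvate kinase of muscle and most other tissues) had log2 fold changes of 0.39, 0.30 and 0.24, with edgeR adjusted p of 0.239, 0.418 and 0.514. Aldoa, the aldolase of muscle, had -0.27 (95% interval -0.84 to 0.30). Splice forms of Pkm cannot be separated in a table with 1 row per gene.

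Hk2, the inducible hexokinase, had few counts and varied widely between libraries. Its day 0 levels were 1.49, 19.1, 1.49 and 56.4 CPM, from 1 to 43 counts, and its day 7 levels were 23.1, 52.1, 9.97 and 14.5 CPM. The spread within day 0 covered the whole of day 7, and the 95% interval of the log2 fold change ran from -1.41 to 2.07.

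**Figure D2:**
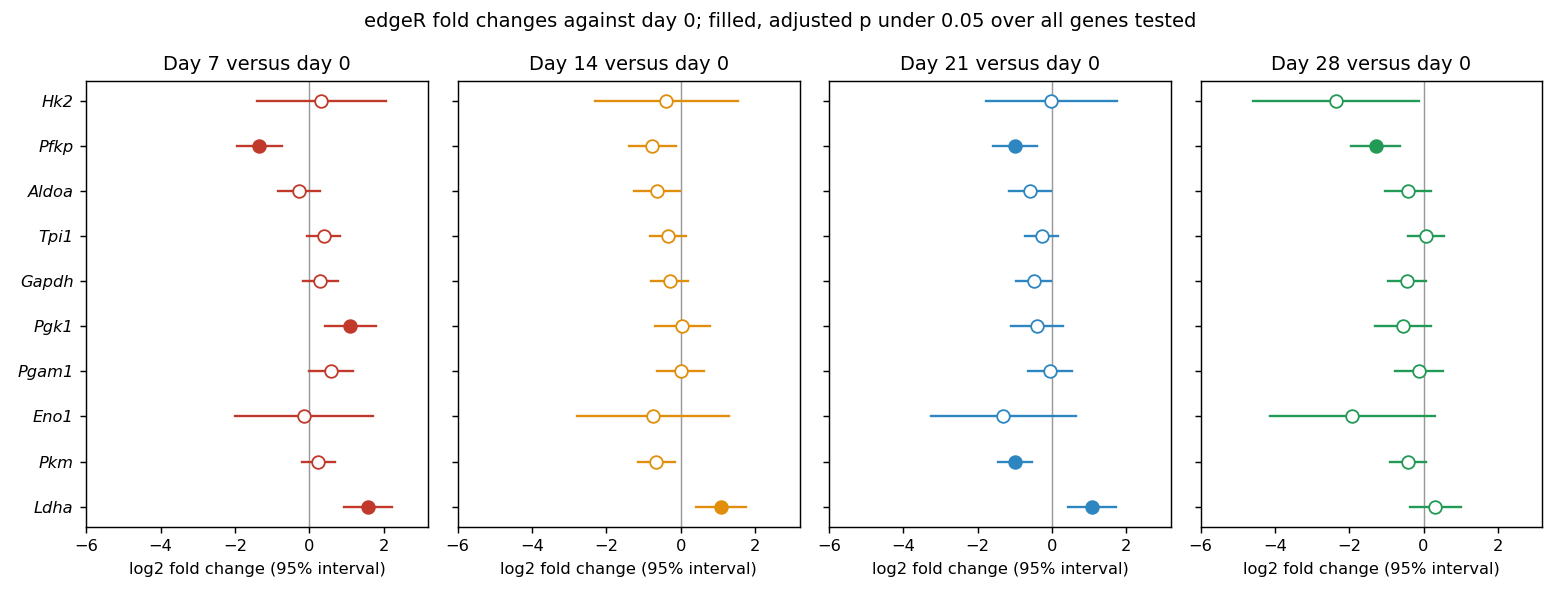
log2 fold change of each gene against day 0 (horizontal axes) on days 7, 14, 21 and 28, with lines for the 95% interval and filled points where the edgeR adjusted p was under 0.05. Filled points are Ldha on days 7, 14 and 21 to the right of 0, Pgk1 on day 7 to the right, Pfkp on days 7, 21 and 28 to the left, and Pkm on day 21 to the left; the intervals of Hk2 and Eno1 are the widest.

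By day 14 the median log2 fold change against day 0 was -0.37 over the 10 genes and 0.05 over all genes. Ldha was the only one of the 10 to pass the test, where 6.22% of all genes did. The day 14 libraries had 242, 459 and 209 CPM of Ldha, all above day 0, with replicate 2 far above the others. The log2 fold change was 1.09 ± 0.33 SE (edgeR adjusted p = 0.0491), a call close to the threshold: it was lost in 13 of 18 fits that left out 1 library (each of day 0, replicates 1, 2 and 3 of day 7, replicate 2 of day 14, replicates 1, 3 and 4 of day 21, and replicates 1 and 3 of day 28), and without day 14 replicate 2 the log2 fold change was 0.66 (adjusted p = 0.507). That library also had a skeletal muscle marker sum of 584 CPM, against 4.80 and 7.83 in the other libraries of the day. Its neutrophil (187 against 12.8 and 19.6), macrophage (3724 against 1606 and 3279) and proliferation sums (814 against 521 and 625) were the highest of the day too. Its contractile smooth muscle sum was the lowest (7724 against 24565 and 8917). The part of any of these in the Ldha level was not tested.

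Another 4 genes lay lower in every day 14 library than in any day 0 library without passing the test. These were Pfkp, Tpi1, Gapdh and Pkm, which is 4 of 10 where 6.79% of all genes did so, and with Ldha 5 of 10 genes did not overlap in either direction, against 17.5% of all genes. Pfkp had 123, 95.3 and 63.9 CPM (log2 fold change -0.76, edgeR adjusted p = 0.177), and Pkm had 304, 379 and 301 CPM against 468 to 607 on day 0 (log2 fold change -0.65, edgeR adjusted p = 0.118). Gapdh had 629, 766 and 611 CPM against 774 to 928, and Tpi1 had 166, 168 and 181 CPM against 183 to 249, so that both groups nearly touched.

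On day 21, 3 of the 10 genes passed the test against day 0, where 8.84% of all genes did. Ldha was higher (5.92% of all genes rose), and Pfkp and Pkm were lower (2.93% of all genes fell). The median log2 fold change was -0.45 over the 10 genes and 0.07 over all genes.

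Pkm, at chr9:59563364-59586663, had 468, 607, 492 and 496 CPM on day 0 and 313, 163, 291 and 258 CPM on day 21. All day 21 libraries lay well below all day 0 libraries. The mean fell to 0.499 of day 0 (log2 fold change -1.0 ± 0.22 SE, edgeR adjusted p = 0.00473), and the call held under every alternative tried, with a largest adjusted p of 0.0218. Ldha had 293, 381, 304 and 219 CPM on day 21, each above the highest day 0 library, with a rise of 2.10-fold (log2 fold change 1.07 ± 0.31 SE, edgeR adjusted p = 0.0306). Day 21 replicate 1 had a skeletal muscle marker sum of 435 CPM, against at most 16.3 CPM in the others of the day. Without replicate 1 the log2 fold change of Ldha was 1.08 (edgeR adjusted p = 0.0599). Replicate 2, the highest for Ldha, had a skeletal muscle marker sum of 10.1 CPM. Without replicate 2 the log2 fold change of Ldha was 0.94 (edgeR adjusted p = 0.0966). Pfkp had 78.1, 86.8, 69.1 and 86.1 CPM, the tightest of its days, and fell to 0.503 of day 0 (log2 fold change -0.99 ± 0.29 SE, edgeR adjusted p = 0.0295).

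The Ldha and Pfkp calls were each lost in 6 of the 18 fits that left out 1 library. For Ldha these were the fits without day 0 replicate 1, 2 or 4 or day 21 replicate 1, 2 or 3 (adjusted p up to 0.103), and for Pfkp those without day 0 replicate 3 or 4 or any day 21 library (adjusted p up to 0.0902). The descriptions of 3 day 0 and 3 day 21 libraries carry the same numbers, which are not explained in the labels. With that number as a block, Pkm and Pfkp were still called and Ldha was not (log2 fold change 1.06, edgeR adjusted p = 0.0517). Gapdh, with 771, 327, 663 and 572 CPM on day 21, was below every day 0 library in each of them (log2 fold change -0.49, edgeR adjusted p = 0.199), as part of 4 of 10 genes whose groups did not overlap, where 16.1% of all genes did not.

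On day 28 only Pfkp among the 10 passed the test against day 0, where 1.34% of all genes did. Its libraries had 44.5, 97.6 and 52.7 CPM, so that replicate 2 was about as high as on day 14 while the others were as low as on day 7. The mean was 0.408 of day 0 (log2 fold change -1.29 ± 0.32 SE, edgeR adjusted p = 0.0423), a call that was lost in 11 of 18 fits that left out 1 library (replicates 2, 3 and 4 of day 0, 1 and 2 of day 7, 2 of day 14, 1, 3 and 4 of day 21, and 1 and 3 of day 28), with adjusted p up to 0.148. Ldha had come down to 198, 137 and 197 CPM, which overlapped day 0 (log2 fold change 0.32, 95% interval -0.37 to 1.01, edgeR adjusted p = 0.713). Pgk1, with 77.6, 36.4 and 87.9 CPM, also overlapped day 0. Pfkp, Gapdh and Pkm did not overlap day 0, which is 3 of 10 genes where 9.95% of all genes did not.

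Across the course, Pfkp was below every day 0 library in all 14 injured libraries, a pattern shared by 1.33% of all genes tested. Pfkp, Gapdh and Pkm were below every day 0 library in all libraries of days 14, 21 and 28, a pattern shared by 1.52% of all genes. None of the 10 was above every day 0 library in all injured libraries, where 1.2% of all genes were. The order of the Ldha means was day 7, day 14, day 21, day 28 and day 0, with 423, 303, 299, 177 and 143 CPM, and the libraries of neighbours in that order overlapped except between days 21 and 28, a difference that was not tested.

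The later days were also compared with day 7, to see which genes came down from their early level. These comparisons share the day 7 libraries with the one above. On day 14 none of the 10 genes passed edgeR's test, where 1.66% of all genes did, while 4 had an unadjusted p under 0.05 and DESeq2 called 2. On day 21, 3 genes passed the test, all lower than on day 7, where 7.26% of all genes passed it and 3.23% were lower. On day 28, 3 genes passed, all lower, where 14.4% of all genes passed and 8.05% were lower. Groups did not overlap day 7 for 3, 4 and 4 of the 10 genes on days 14, 21 and 28, against 13.9%, 16.9% and 24.1% of all genes. The median log2 fold changes of the 10 genes were -0.60, -0.66 and -0.73, and those of all genes were -0.01, 0.01 and -0.07.

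Pgk1 fell from its day 7 level to 80.4, 40.4, 62.5 and 116 CPM on day 21, each below the lowest day 7 library (log2 fold change -1.52 ± 0.34 SE, edgeR adjusted p = 0.00564). On day 28 it was 0.315 of the day 7 level (log2 fold change -1.67 ± 0.38 SE, edgeR adjusted p = 0.0039). Both calls held under every alternative tried. Pkm fell to 0.422 of its day 7 level on day 21 (log2 fold change -1.24 ± 0.22 SE, edgeR adjusted p = 9.13e-04), a call that also held throughout. Its day 28 libraries, with 401, 364 and 401 CPM, lay between days 21 and 0, and were below the 510 to 778 CPM of day 7 (log2 fold change -0.65, edgeR adjusted p = 0.0686).

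Gapdh, often used as a reference gene, had 776, 928, 774 and 814 CPM on day 0 and 1271, 988, 1045 and 749 CPM on day 7. It then had 616, 556 and 641 CPM on day 28, below every library of both earlier days. Against day 7 it was lower on day 21 (log2 fold change -0.79 ± 0.23 SE, edgeR adjusted p = 0.0319) and on day 28 (-0.75 ± 0.25 SE, edgeR adjusted p = 0.0453). The first call was lost in 6 of the 18 fits that left out 1 library (replicates 1, 2 and 3 of day 7 and 2, 3 and 4 of day 21). The second was lost in 13 of them, which covered every day 28 library, replicates 1, 2 and 3 of day 7, and 7 libraries of the other days. Gapdh exons share 2982 bases with Iffo1 on the other strand. Iffo1 had 487 counts over all libraries and Gapdh 8612, and reads shared by both were not tested. Ldha fell between days 7 and 28 to 0.42 of its day 7 level (log2 fold change -1.25 ± 0.34 SE, edgeR adjusted p = 0.0148), though not without day 7 replicate 1 (adjusted p = 0.0805) or day 28 replicate 2 (adjusted p = 0.0793).

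Eno1 encodes the ubiquitous enolase, and another gene in the table has a nearly identical transcript end. Eno1 had 153 counts over all libraries, whereas that gene, Eno1b, had 2167, which is 93.4% of their sum. In day 0 replicate 1 Eno1 had 0 counts and Eno1b had 76. Their transcript ends are 97.3% identical over 510 aligned bases, so the Eno1 level is uncertain, and how many Eno1b counts match Eno1 was not tested.

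**Figure D3:**
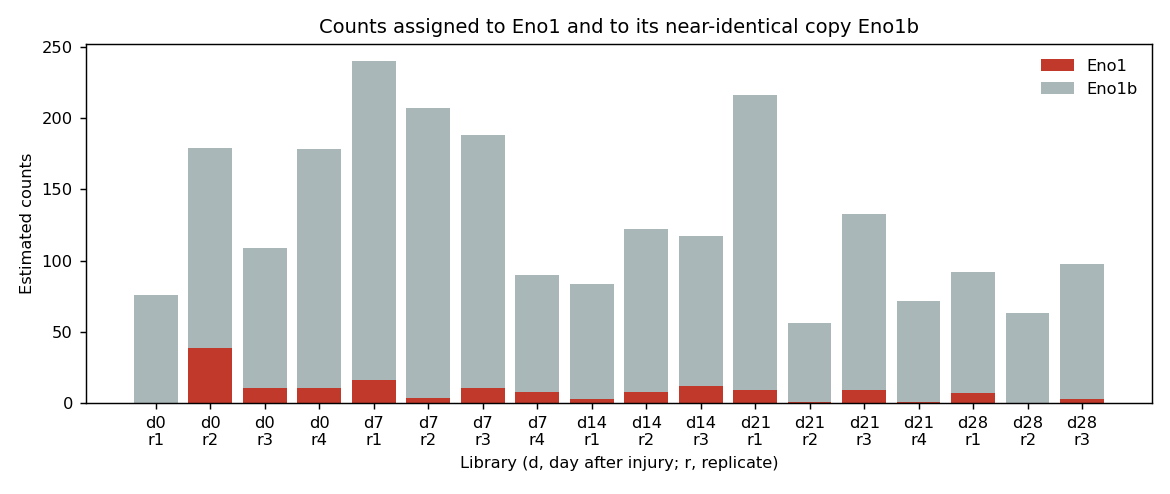
Estimated counts (vertical axis) of Eno1 and of Eno1b, stacked, in each of the 18 libraries (horizontal axis). Eno1b holds most of the stacked count in every library; Eno1 ranges from 0 to 39 counts.

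By its own row Eno1 did not pass the test on any day, with 95% intervals as wide as -4.14 to 0.31 on day 28. The sum of both rows was 113, 214, 162 and 234 CPM on day 0 and 427, 372, 375 and 145 CPM on day 7. There too replicate 4 was the lowest day 7 library, and it lay inside the range of day 0. With the rows of copies added, the log2 fold change of Eno1 on day 7 was 0.87 (edgeR adjusted p = 0.0517), where its own row gave -0.15 and the Eno1b row gave 0.95 (edgeR adjusted p = 0.0312). Copies of the other genes took at most 2.21% of the summed counts, for Gapdh.

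Most steps have further isozymes, encoded by other genes. Of 19 genes of other glycolytic isozymes and steps, 9 could be tested. Ldhb and Eno2 fell by day 7 and none rose, so that 2 of 9 were called, near the 19.8% of all genes, and the median of the 9 log2 fold changes was -0.39 (0.07 over all genes). Ldhb alone was lower on day 21, and none passed the test on days 14 or 28.

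Ldhb encodes the heart-type subunit of lactate dehydrogenase, which pairs with the Ldha product in the same tetramers. It had 90.8, 145, 65.6 and 106 CPM on day 0 and 24.9, 17.97, 7.97 and 16.1 CPM on day 7, with no overlap. The day 7 mean was 0.167 of day 0 (log2 fold change -2.58 ± 0.42 SE, edgeR adjusted p = 7.85e-05), and on day 21 it was 0.338 of day 0 (log2 fold change -1.57 ± 0.39 SE, edgeR adjusted p = 0.0123). On day 28 it had 81.9, 89.3 and 63.9 CPM, inside the range of day 0 but for replicate 3.

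Both subunits can be set side by side as shares of their summed counts, since 3′-end counts do not grow with length. Ldha made up 60.1%, 44.7%, 72.5% and 57.4% of Ldha and Ldhb together on day 0, and 96.1%, 95.7%, 98.4% and 91.8% on day 7. The mean share was 58.7 ± 11.4% before injury and 95.5 ± 2.74%, 86.5 ± 8.60%, 89.2 ± 4.75% and 68.9 ± 7.61% at the 4 later times (SD, n = 4, 4, 3, 4 and 3). Days 7, 14 and 21 did not overlap day 0, and day 28 did. By a two-sided exact permutation test the difference on day 7 had p = 0.0286, the smallest this design allows, and 0.114 after Benjamini-Hochberg adjustment over the 12 share comparisons made, so it did not pass.

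**Figure D4:**
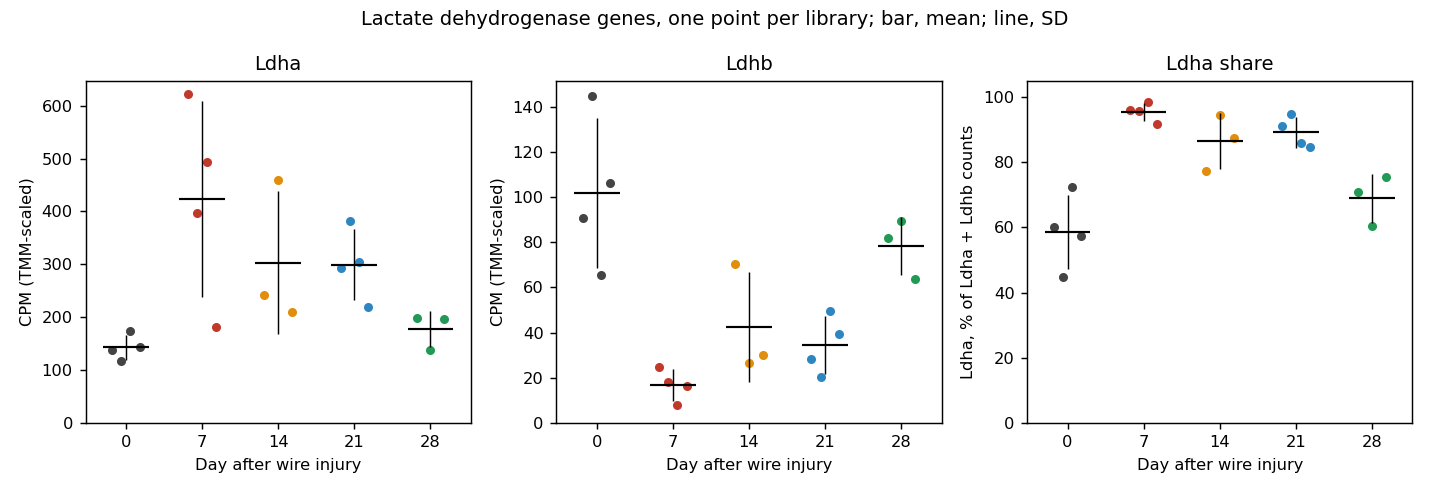
Level of Ldha and of Ldhb in CPM, and Ldha as a percentage of the summed Ldha and Ldhb counts, by day after wire injury. Points are libraries, bars are means and vertical lines are SDs; on day 7 Ldhb is under 25 CPM in all 4 libraries and the share of Ldha is between 91.8% and 98.4%.

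Of the phosphofructokinase genes, Pfkl (liver type) had a mean of 25.1 ± 12.1 CPM on day 0 and 44.0 ± 13.05 on day 7, and Pfkm (muscle type) had 31.4 ± 29.0 and 13.1 ± 8.37, neither past the test. The share of Pfkp in the summed counts of these 3 genes was 74.6 ± 11.8% on day 0 and 53.1 ± 8.94% on day 7 (exact permutation p = 0.0286, adjusted 0.114). Hk1, the hexokinase found in most cells, had 54.7 ± 23.2 CPM on day 0 and 67.0 ± 12.3 on day 7. Hk3, a hexokinase of leukocytes, was too low to be tested, with 0 counts in the 4 day 0 libraries and 27 in the 4 day 7 libraries.

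Gpi1, glucose-6-phosphate isomerase, which acts between hexokinase and phosphofructokinase, stayed between 207 ± 66.2 CPM on day 14 and 291 ± 27.2 on day 28, with no call. Eno2, the neuronal enolase, had 47 counts on day 0 and 4 on day 7 (log2 fold change -3.09 ± 1.08 SE, edgeR adjusted p = 0.0443), too few for a firm ratio. Eno3, the muscle enolase, had a mean of 18.2 ± 13.5 CPM on day 0 and 13.2 ± 4.09 on day 7. Pgam2 and Aldoc reached 19 and 6 counts over all libraries, and Gapdhs, Pgk2 and Pklr had 0.

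Glucose and lactate cross the membrane on carriers, and several proteins set the pace of the pathway. Of 14 such genes tested, 3 rose and 2 fell on day 7, when 11.3% of all genes rose and 8.53% fell, and the median log2 fold change was 0.50. Myc, a transcription factor that acts on glycolytic genes, rose from 5.17 ± 9.48 to 54.5 ± 16.3 CPM (log2 fold change 3.40 ± 0.99 SE, edgeR adjusted p = 0.0157). Slc16a1, a carrier of lactate, rose from 7.25 ± 6.33 to 43.0 ± 29.7 CPM (edgeR adjusted p = 0.0253). Slc2a6, a transporter of the glucose carrier family, had 0 counts in every day 0 library and 8 to 14 in each day 7 library, so that no fold is given (edgeR adjusted p = 0.00395).

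The 2 that fell were Slc2a4, the insulin-responsive glucose carrier, and Txnip, which restrains glucose uptake. Slc2a4 had 84 counts on day 0, 5 on day 7 and 5 on day 21, and passed the test on both days (edgeR adjusted p = 0.0253 and 0.0458). Txnip had 367 ± 71.3 CPM on day 0 and 162 ± 26.0 on day 7, or 0.44 of day 0 (edgeR adjusted p = 9.76e-04). Slc2a1, the general glucose carrier, had 50.3 ± 10.2 and 63.0 ± 18.9 CPM (log2 fold change 0.33, edgeR adjusted p = 0.582). No gene of the list passed the test on days 14 or 28.

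The pentose phosphate pathway branches from glycolysis and makes NADPH and the sugar of nucleotides. Of 9 genes tested, 3 rose and 1 fell on day 7, beside the same 11.3% and 8.53% of all genes. The median log2 fold change was 0.47, and none passed the test against day 0 on later days. Pgd, which yields NADPH, rose 3.90-fold from 58.9 ± 26.6 to 229 ± 34.1 CPM (edgeR adjusted p = 8.32e-04). Taldo1 and Tkt, which return sugars to glycolysis, rose 2.21-fold and 1.898-fold (edgeR adjusted p = 0.00182 and 0.00987), and Rpia, which makes ribose 5-phosphate, fell to 0.378 of day 0 (edgeR adjusted p = 0.0389).

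Pyruvate that is not turned into lactate enters mitochondria. Of 13 genes of that step, 2 fell on day 7, where 8.53% of all genes fell, and none rose, a count not far from that of all genes. The median log2 fold change was -0.39. These were Pdk2, a kinase that shuts off pyruvate dehydrogenase (log2 fold change -1.895, edgeR adjusted p = 0.0128), and Pdp2, a phosphatase that turns it on (-3.03, edgeR adjusted p = 0.00699), so that the 2 fallen genes have opposite known actions. Of 12 glycogen genes, Pygb and Pygm, which break glycogen down, fell on day 7, again beside 8.53% of all genes (log2 fold change -1.96 and -2.69, edgeR adjusted p = 0.00188 and 0.0209), and Pygb was also lower on day 14 (-1.59, edgeR adjusted p = 0.039). Neither of the 2 gluconeogenesis genes tested passed on any day.

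HIF1A acts on genes outside glycolysis too. Of 13 tested, Mif rose and Higd1a fell on day 7 (log2 fold change 1.05 and -1.09, edgeR adjusted p = 0.0481 and 0.0155), and the median log2 fold change was -0.02. These 2 of 13 compare with 19.8% of all genes called. Vegfa, the main endothelial growth factor, had 14.7 ± 5.59 CPM on day 0 and 40.8 ± 10.1 on day 7 (edgeR adjusted p = 0.0522), and it was higher on day 21 (log2 fold change 1.88, edgeR adjusted p = 0.0243).

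The 10 genes did not follow each other evenly. Over the 18 libraries, which share the days and the scaling, Pearson's r of log2 CPM was 0.91 between Gapdh and Pkm, 0.81 between Gapdh and Pgk1 and 0.73 between Pgk1 and Pgam1. It was 0.00 between Pkm and Ldha and -0.53 between Pfkp and Ldha. The genes whose log2 CPM was most like the mean standardised level of the 10 were Eif5a (r = 0.89), Psmd2 (0.87), Ranbp1 (0.86), Rpl29 (0.86), Cox5a (0.85) and S100a11 (0.85), and the least like were Pkd1 (-0.92), Cnn2 (-0.92) and Phf1 (-0.88). The summed CPM of the 10 genes was 2470 ± 199.6 before injury and 3146 ± 615, 2053 ± 316, 1858 ± 312 and 1922 ± 89.6 at the 4 later times. This sum, the mean standardised level and the medians over the 10 genes used the Eno1 row without the Eno1b counts, so they share its uncertainty.

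Marker RNA of several cell types moved over the same days. The defining markers of contractile smooth muscle were present in all libraries, and 10 such genes summed to 34167 to 39599 CPM before injury, and to 1693 to 7381, 7724 to 24565, 8811 to 22613 and 21317 to 29863 CPM at the 4 later times. All 9 that were tested fell on day 7. The 16 macrophage markers summed to 148 to 585 CPM before injury, and to 5963 to 8528, 1606 to 3724, 2334 to 3996 and 1027 to 1395 CPM later, and all 16 rose on days 7, 14 and 21. In bulk tissue, fewer cells of a type and less RNA per cell cannot be told apart.

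The 14 proliferation genes summed to 308 to 550 CPM on day 0 and 1080 to 1673 on day 7, when 11 of them rose, and returned to 321 to 498 on day 28. Day 7 replicate 4 was the lowest day 7 library for Aldoa, Gapdh, Pgk1, Pgam1, Pkm and Ldha. It was not the lowest for Hk2, Tpi1 or Eno1, and it was the highest for Pfkp. This library had the lowest proliferation sum of its day, the highest contractile sum, 7381 CPM, and the highest red blood cell sum. Red blood cell markers summed to 164, 1939, 1812 and 2347 CPM in the day 7 libraries, against 40.2 to 369 on day 0. Of 8 neutrophil markers 4 were at 0 on day 0, and they summed to at most 13.2 CPM there and to 189 to 682 on day 7. Endothelial markers ranged from 545 to 1830 CPM on day 7 and from 642 to 1075 on day 0, and fibroblast markers from 1374 to 2557 and from 2536 to 3520. The genes within both lists went different ways. Of 8 endothelial markers tested, 3 rose and 1 fell on day 7, and of 8 fibroblast markers 2 rose and 3 fell. Of all genes 11.3% rose and 8.53% fell. The part of these cell types in the levels of the glycolytic genes was not tested.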

How the data were processed

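Starting from MACE reads, the authors dropped copies that shared a molecular identifier, cut off poor ends and adapters, ran Salmon 1.9.0 on mm39 and deposited estimated counts per gene as whole numbers, 1 column per library; annotation release and use of strand are not given in the sources used here. A second deposited table, normalised with DESeq2 1.36.0 by the authors, holds the same 18 libraries and was not used. Counts were fitted with edgeR 4.0.16 in R 4.3.3 (filterByExpr and TMM; glmQLFit with day as the only term over all 18 libraries; Benjamini-Hochberg over 10312 genes; threshold 0.05). SE is the log2 fold change over the root of F. DESeq2 1.42.0, other scalings, no filter, blocks, added copies (transcript ends of 500 bases, BLAST+ 2.17.0, at least 400 bases at 95% identity) and each library left out were alternatives. Scripts were tested on simulated data. The 10 genes and the other lists were chosen with earlier results of these data known. Named were the 10 genes, their isozymes, other pathway genes called against day 0, and the 6 genes most and 3 least alike. An isozyme gene is not reported here. Over 33 pairs with the same replicate number, the median correlation of residuals was -0.01 (lowest -0.13, highest 0.20). Over 3 pairs with the same number in the description it was 0.04. With so few libraries per day, these values cannot show whether any libraries were paired. No 2 libraries were identical. Coordinates are GENCODE vM39 and promoter windows RefSeq.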

Additional observations from a re-analysis of the deposited data

Results flagged for a closer look

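Of 42 groups of 4 libraries checked, 1 held a library far from the others: in day 21 replicate 2, Hk2 made up 50% of the summed Hk1, Hk2 and Hk3 counts, from 6 counts of Hk2. About 1 in 20 such groups would be flagged by chance.

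The change against day 0 differed between day 7 and a later day for 5 results with Gapdh, Pgk1 or Pkm and 1 with Ldha, tested as the contrast between the days in edgeR's quasi-likelihood fit. From day 7 to day 21 the log2 fold changes were -0.79 for Gapdh (adjusted p = 0.0319), -1.52 for Pgk1 (adjusted p = 0.00564) and -1.24 for Pkm (adjusted p = 9.13e-04). From day 7 to day 28 they were -0.75 for Gapdh (adjusted p = 0.0453), -1.67 for Pgk1 (adjusted p = 0.0039) and -1.25 for Ldha (adjusted p = 0.0148).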

How the results depend on the processing

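The number of the 10 genes called on day 14 against day 0 was 0, not 1, with plain library totals, with the replicate block, with a block on the description number and at an adjusted p under 0.01. On day 28 against day 0 it was 0, not 1, under these and with only the days compared. At 0.01 it was 1, not 3, on day 21 against day 0 and on day 28 against day 7. On day 14 against day 7 it was 2 by DESeq2 and 1 with RLE factors or plain totals, not 0, and on day 28 against day 7 it was 5 by DESeq2 and 1 with only the days compared, not 3. The summed CPM of day 28 was 2020.3 with plain totals. The cause was not tested. Leaving out 1 library gave 2 to 3, 0 to 1, 1 to 3 and 0 to 1 genes against day 0 on days 7, 14, 21 and 28, and 0 to 1, 2 to 3 and 1 to 4 against day 7 on days 14, 21 and 28.

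Neither block is a pairing given by the labels, and the block on the description number leaves day 0 replicate 1 as the lone unpaired day 0 library. The replicate block ended the calls of Ldha on day 14 (adjusted p = 0.159) and Pfkp on day 28 (0.08) against day 0 and of Gapdh on day 28 against day 7 (0.0528), and the description number block that of Ldha on day 7 (0.0558); that block moved the median of all genes by over 0.1 on days 7, 14 and 28 against day 0. No filter ended the Pfkp call of day 21 (0.0579), and fitting only the days compared ended those of Gapdh on day 21 (0.0685) and Ldha on day 28 (0.0565) against day 7. Gapdh on day 28 against day 7 also lost its call with plain totals (0.0593), no filter (0.0524) and only the days compared (0.0845). Signs of uncalled log2 fold changes turned as follows. With the replicate block Hk2 was 0.38 on day 14 and 0.78 on day 21 against day 0, and 0.0532 on day 21 against day 7. With the description number block, against day 0, Hk2 was 1.85 on day 14 and 0.92 on day 21, Eno1 was 3.48 on day 7, 2.89 on day 14 and 1.72 on day 28, Aldoa was 0.13 on day 7, Gapdh was 0.0852 on day 14, and on day 28 Tpi1 was -0.13, Pgk1 0.0316 and Pgam1 0.00422. Hk2 on day 21 against day 0 was 0.0025 by DESeq2 and 0.0054 with RLE factors, and Pgam1 on day 14 was -0.0185 with only the days compared. With copies added by name Eno1 was 0.87 on day 7 and 0.0702 on day 21, and by sequence, an alternative chosen after seeing the data, 0.864 and 0.0677.

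With 1 library left out, log2 fold changes against day 0 ranged from -0.31 to 1.65 on day 7, -0.76 to 0.95 on day 14 and -0.40 to 1.32 on day 21 for Hk2, from -0.55 to 0.71 on day 7 and -1.15 to 0.13 on day 14 for Eno1, from -0.17 to 0.19 on day 14 for Pgk1, from -0.17 to 0.18, -0.21 to 0.14 and -0.57 to 0.20 on days 14, 21 and 28 for Pgam1, and from -0.16 to 0.22 on day 28 for Tpi1. Against day 7 they ranged from -0.61 to 0.29 on day 21 for Hk2 and -0.36 to 0.27 on day 28 for Pfkp. The change in the Hk2 share ranged from -4.20 to 8.97 percentage points on day 7 and -7.13 to 5.94 on day 14. Of all log2 fold changes under alternatives, 1890 kept direction and side of the threshold, 75 lost the call, 15 gained one and 50 turned. Counts over all libraries were low for Hk2 (203) and Eno1 (153).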
